A study of Homo sapiens with 2 samples.

Results

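The genes described here are the 10 MHC class II chain and loading genes of the table of long reads from GM12878: HLA-DRA, HLA-DRB1, HLA-DRB5, HLA-DPA1, HLA-DPB1, HLA-DQA1, HLA-DQB1, HLA-DMA, HLA-DMB and CIITA. They were taken by gene symbol, from a list drawn up with earlier results of these data known, and are 10 of 16645 annotated genes with a read and 648 of 237608 transcript models. GM12878 is a B-lymphoblastoid cell line, that is, B cells immortalised with Epstein-Barr virus. Native RNA of the line was sequenced on Oxford Nanopore flow cells (FLO-MIN106D) with the direct RNA kit SQK-RNA002, so that strands entered the pore with their 3′ end first. The study has 1 group, untreated as far as the labels say, of 2 replicate libraries. The labels do not say whether the replicates came from separate cultures. Every test below compares the reads of these 2 libraries, takes account of counting error only and measures no spread between preparations. A difference between the libraries may be technical.

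MHC class II molecules present peptides from endocytosed proteins to CD4+ T cells, and B cells are among the professional antigen-presenting cells that make them constitutively. Each classical molecule (DR, DP or DQ) is a heterodimer of an alpha and a beta chain that is assembled on the invariant chain CD74. The nonclassical heterodimer DM removes the invariant chain fragment from the groove and edits the peptide, and DO restrains DM. CIITA is the coactivator that switches the class II genes on: it does not bind DNA itself but is recruited by factors (RFX, CREB and NF-Y) bound to the X and Y boxes in the promoters of the class II genes.

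The promoters are shown for these elements, which the chain and loading genes are known to share. Windows of 300 bases, from 250 before to 50 after the RefSeq start (GRCh38.p14), were found for 8 of the 10 genes, HLA-DPA1 with 2 starts. HLA-DRA and CIITA had no entry. They were searched on both strands for an X box core written AGNNACNGA and for the Y box core ATTGG. The X core was found in 7 of the 9 windows, the Y core in 7 and both in 6. Among 35116 RefSeq promoters of the same length, 15.3% held the X core, 34.6% the Y core and 5.31% both. An X core followed by a Y core 15 to 35 bases further on stood in 5 of the 9 windows and in 0.276% of all promoters; this spacing was set after the windows had been seen. Those 5 stretches are printed 5′ to 3′ on the strand of the gene, with the 2 cores in capitals.
HLA-DRB1, chr6:32589878-32589939, minus strand: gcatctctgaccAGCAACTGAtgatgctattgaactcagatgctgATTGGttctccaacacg
HLA-DRB5, chr6:32530361-32530422, minus strand: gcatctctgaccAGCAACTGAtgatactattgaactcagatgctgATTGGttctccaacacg
HLA-DQA1, chr6:32637292-32637354, plus strand: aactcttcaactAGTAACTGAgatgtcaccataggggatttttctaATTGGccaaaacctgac
HLA-DQB1, chr6:32666729-32666790, minus strand: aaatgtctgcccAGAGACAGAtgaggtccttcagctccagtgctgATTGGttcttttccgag
HLA-DMA, chr6:32953160-32953222, minus strand: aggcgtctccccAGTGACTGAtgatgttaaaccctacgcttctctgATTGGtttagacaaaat

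The cores were 24 bases apart in HLA-DRB1, HLA-DRB5 and HLA-DQB1 and 25 bases apart in HLA-DQA1 and HLA-DMA. The remaining windows are shown with 1 core before the start in capitals. It is the last X core on the strand of the gene or, without one, the first Y core. HLA-DMB held 3 X matches over both strands and the downstream HLA-DPA1 window 2, with 1 in each on the strand of the gene before the start. In HLA-DMB the X core shown was followed after 57 bases by a Y core on the other strand. The window of the downstream HLA-DPA1 start held no Y core. HLA-DPB1 held a Y core without an X core, and the window of the upstream HLA-DPA1 start held neither. A match is a description of letters, and no binding was measured.
HLA-DMB, chr6:32941098-32941126, minus strand, X core: acgtttacctAGTAACTGAtgatgctagg
HLA-DPA1, downstream start, chr6:33073730-33073758, minus strand, X core: ctctttacccAGCAACAGAgaatgtcagc
HLA-DPB1, chr6:33075881-33075905, plus strand, Y core: ctcagtgtccATTGGttcttttctc

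Replicate 1 held 1360368 reads and replicate 2 held 1510998, so that 1 read was worth 0.735 and 0.662 CPM (counts scaled to a common library total) and the 3 reads that a count of 0 allows were worth 2.21 and 1.99 CPM. The libraries differed in how completely reads matched the annotation: annotated (known) models took 55.9% of replicate 1 and 45.9% of replicate 2. All 8 B cell markers were detected in both libraries, at a summed level of 2124 and 2091 CPM. Of the T cell list 2 of 5 genes had reads in both libraries (5.88 and 17.2 CPM summed), namely CD3E with 5 and 16 reads and CD2 with 3 and 10, while CD3D, CD3G and CD8A were at 0. The dendritic cell list (1 of 4 genes, CLEC9A at 0) summed to 14.0 and 16.5 CPM, nearly all of it CD1C with 17 and 24 reads, and the monocyte list (3 of 4, LYZ at 0) to 7.35 and 11.9 CPM. The NK list (0 of 3, 0 and 0.662 CPM) and the erythroid list (0 of 3, 0.735 and 0 CPM) were below the floor.

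The 10 genes together received 12277 reads of replicate 1 (0.902%, 95% Wilson interval 0.887 to 0.919%) and 12245 reads of replicate 2 (0.810%, 0.796 to 0.825%). Their mean share was 0.856% ± 0.0651 (SD, n = 2). The share was lower in replicate 2, and the intervals, which cover counting error only, did not overlap. In direct RNA sequencing 1 read stands for 1 strand, so levels are CPM values that are not divided by length. All genes but CIITA lie in the class II region of chromosome 6. Positions are those of GENCODE 29 (GRCh38).

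The DR chains were the most abundant. HLA-DRA, the alpha chain of DR (ENSG00000204287.13, 32439842 to 32445046, plus strand), had 3762 and 3617 reads, which is 2765 and 2394 CPM, a mean of 2580 CPM ± 263 (SD, n = 2) and rank 71 of all genes. HLA-DRB1, its main beta chain (ENSG00000196126.11, 32578769 to 32589848, minus strand), had 2645 and 2805 reads, or 1944 and 1856 CPM, a mean of 1900 CPM ± 62.2 and rank 101. HLA-DRB5, a second beta chain gene that is present on some DR haplotypes only (ENSG00000198502.5, 32517343 to 32530287, minus strand), had 6 and 11 reads, or 4.41 and 7.28 CPM, a mean of 5.85 CPM ± 2.03 and rank 9302. HLA-DRB5 thus stood close to the floor in both libraries, while HLA-DRA and HLA-DRB1 did not overlap with it or with each other.

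The reads of the DRB genes could be split between near-identical copies. The coding sequences of HLA-DRB1-201 and HLA-DRB5-201 in the reference were 798 bases each and differed at 52 positions (93.5% identity). Identity was lowest among the 3 long exons in exon 2, which encodes the peptide-binding domain, with 26 differences in 270 bases (90.4%), against 95.4% in exon 3 and 97.3% in exon 4. The annotation used here had 0 entries for HLA-DRB3 and HLA-DRB4, and the table had 0 rows with those names, so a read from such a gene has no row of its own. The 90 reference bases printed, from coding exon 2, were chosen as the stretch within 1 exon with the most differences. Their 15 differences are in capitals, and the genes are more alike over the rest of the coding sequence.
HLA-DRB1-201, chr6:32584282-32584371, minus strand: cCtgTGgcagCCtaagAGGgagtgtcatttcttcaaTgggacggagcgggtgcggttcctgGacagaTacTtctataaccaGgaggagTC
HLA-DRB5-201, chr6:32522078-32522167, minus strand: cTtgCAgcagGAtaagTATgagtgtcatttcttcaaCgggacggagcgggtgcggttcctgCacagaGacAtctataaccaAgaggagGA

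The DP chains came next. HLA-DPA1, the alpha chain of DP (ENSG00000231389.7, 33064569 to 33080775, minus strand), had 1843 and 1876 reads, or 1355 and 1242 CPM, a mean of 1298 CPM ± 80.1 and rank 131. HLA-DPB1, the beta chain (ENSG00000223865.10, 33075926 to 33087201, plus strand), had 1264 and 1359 reads, or 929 and 899 CPM, a mean of 914 CPM ± 21.0 and rank 156. The spans of the 2 genes overlap on opposite strands, and direct RNA reads carry the strand of the RNA. Whether the authors' assignment used the strand is not given in the sources used here.

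The DQ chains were lower. HLA-DQA1, the alpha chain (ENSG00000196735.11, 32628179 to 32647062, plus strand), had 1287 and 1201 reads, or 946 and 795 CPM, a mean of 870 CPM ± 107 and rank 162. HLA-DQB1, the beta chain (ENSG00000179344.16, 32659467 to 32668383, minus strand), had 612 and 717 reads, or 449.9 and 474.5 CPM, a mean of 462 CPM ± 17.4 and rank 268. HLA-DQA1 was above HLA-DPB1 in replicate 1 and below it in replicate 2, so the order of these 2 neighbours was not settled.

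The loading chains followed. HLA-DMA (ENSG00000204257.14, 32948613 to 32969094, minus strand), the alpha chain of DM, had 449 and 379 reads, or 330.1 and 251 CPM, a mean of 290.4 CPM ± 56.0 and rank 444. HLA-DMB (ENSG00000242574.8, 32934629 to 32941070, minus strand), the beta chain, had 317 and 192 reads, or 233 and 127 CPM, a mean of 180.0 CPM ± 74.9 and rank 769. Both values of HLA-DMA were above both values of HLA-DMB, although the ranges of 1 SD around their means met. CIITA (ENSG00000179583.19, chromosome 16, 10866222 to 10943021, plus strand), the regulator, had 92 and 88 reads, or 67.6 and 58.2 CPM, a mean of 62.9 CPM ± 6.64 and rank 2292. In the order DRA, DRB1, DPA1, DPB1, DQA1, DQB1, DMA, DMB, CIITA, DRB5, only the neighbours HLA-DPB1 and HLA-DQA1 had values that overlapped between the genes.

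**Figure D1:**
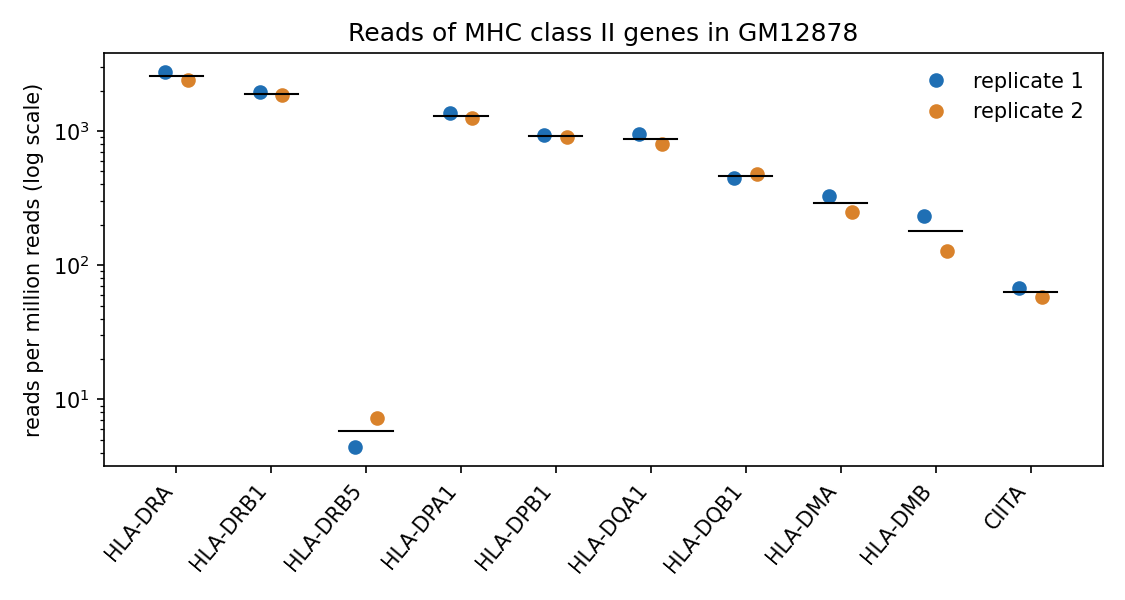
Levels of the 10 genes in CPM (log scale) in replicate 1 and replicate 2, with a bar at the mean of the 2 libraries. HLA-DRA is highest in both libraries, CIITA lies at 67.6 and 58.2 CPM, and HLA-DRB5 stands apart at 4.41 and 7.28 CPM.

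Summed by heterodimer, DR had 4714 and 4257 CPM (52.2% and 52.5% of the reads of the 10 genes), DP 2284 and 2141 CPM (25.3% and 26.4%), DQ 1396 and 1269 CPM (15.5% and 15.7%) and DM 563 and 378 CPM (6.24% and 4.66%). The order DR, DP, DQ, DM was the same in both libraries. Of the 4 shares, only that of DM was lower in replicate 2. The classical chains together had 14.9 reads per DM read in replicate 1 and 20.3 in replicate 2.

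The alpha chain had more reads than its beta chain in all 4 heterodimers and both libraries. In DR the beta count takes in HLA-DRB1 and HLA-DRB5 only. HLA-DRB3 and HLA-DRB4 have no entry in the annotation used, so their reads, if any, were left out or counted under another gene. For DR the ratio of HLA-DRA reads to HLA-DRB1 and HLA-DRB5 reads was 1.42 in replicate 1 (exact 95% interval 1.35 to 1.49) and 1.28 in replicate 2 (1.22 to 1.35), which average 1.35 ± 0.0952 (SD, n = 2). For DP it was 1.46 (1.36 to 1.57) and 1.38 (1.29 to 1.48), a mean of 1.42 ± 0.0549. These 2 ratios were the closest between libraries. For DQ the ratio was 2.10 (1.91 to 2.32) and 1.68 (1.53 to 1.84), a mean of 1.89 ± 0.303. For DM it was 1.42 (1.22 to 1.64) and 1.97 (1.65 to 2.36), a mean of 1.70 ± 0.394. DQ had the higher ratio in replicate 1 and DM in replicate 2, and for both the intervals of the libraries did not overlap. The DR intervals barely failed to overlap as well (lower limit 1.3499 in replicate 1, upper limit 1.3498 in replicate 2). The intervals cover counting error only, and the differences between libraries or heterodimers were not tested. With reads in known models only, the DP ratio turned to 0.0168, since HLA-DPA1 had almost no known reads, and the DR ratio rose to 2.13.

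**Figure D2:**
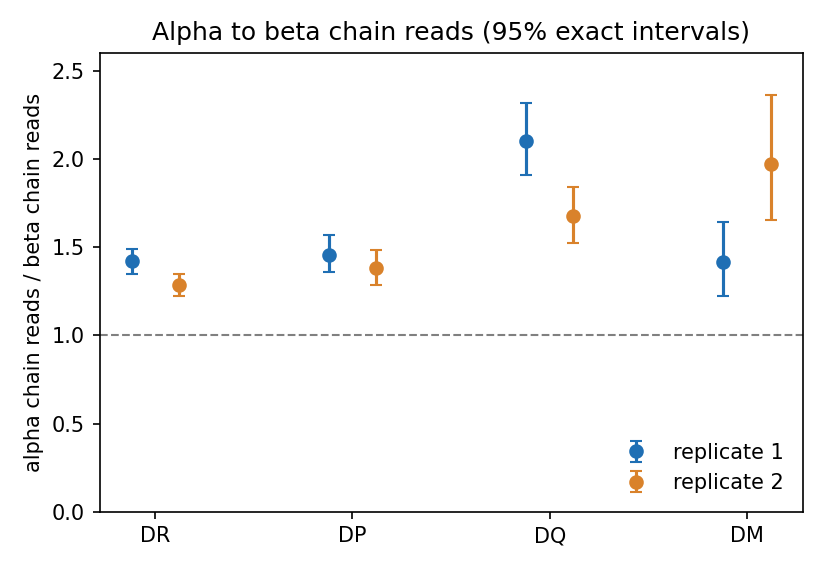
Ratio of alpha chain reads to beta chain reads for DR, DP, DQ and DM in each library, with exact 95% intervals for counting error and a dashed line at equal reads. All 8 ratios lie above 1, from 1.28 for DR in replicate 2 to 2.10 for DQ in replicate 1. For DR the beta chain reads are those of HLA-DRB1 and HLA-DRB5, without HLA-DRB3 and HLA-DRB4.

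Of the 10 genes, 4 had lower levels in replicate 2 and 0 had higher levels in two-sided exact binomial tests against the library totals, adjusted by Benjamini-Hochberg over the 10634 genes with at least 10 reads in both libraries together. Among all tested genes 5.05% differed, 2.33% lower and 2.72% higher in replicate 2. That share depends on read number: with at least 20 reads in both libraries together it was 6.34%. The members were not compared with genes of like read number. HLA-DMB had the largest difference of the 4 genes, with a log2 ratio of replicate 2 to replicate 1 of -0.87 (adjusted p = 3.31e-09, exact binomial test). The other loading chain, HLA-DMA, had -0.40 (adjusted p = 0.00325, exact binomial test). Both loading chains were thus lower in replicate 2. HLA-DRA had -0.21 (adjusted p = 7.97e-08, exact binomial test) and HLA-DQA1 -0.25 (adjusted p = 0.000807, exact binomial test). Their partner chains did not pass: HLA-DRB1 had -0.07 (adjusted p = 0.422, exact binomial test) and HLA-DQB1 0.08 (adjusted p = 0.749, exact binomial test). HLA-DPA1 (-0.13), HLA-DPB1 (-0.05), CIITA (-0.22) and HLA-DRB5 (0.67) did not pass either. HLA-DRB5 has too few reads for its ratio to be read as a direction. The median log2 ratio was -0.17 over the 10 genes and 0.01 over all tested genes. The test takes account of counting error only, and with 1 group it says nothing about a condition.

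**Figure D3:**
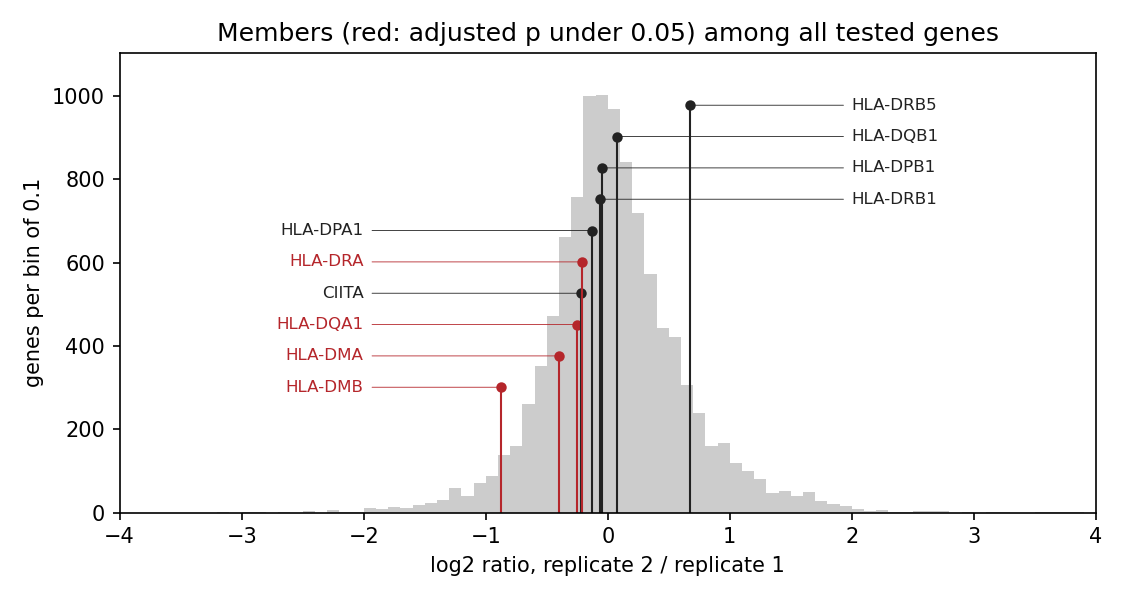
Distribution of the log2 ratio of replicate 2 to replicate 1 over the 10634 tested genes (grey bars, genes per bin of 0.1), with a vertical line and label at the ratio of each class II gene, red where its adjusted p was under 0.05 (the heights of the lines carry no value). The 4 red genes lie below 0, with HLA-DMB farthest at -0.87.

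The reads of each gene were then divided by the category of their model. A known model has the splice junctions of an annotated transcript. ISM models (incomplete splice matches) carry some consecutive junctions of such a transcript and are suffix models if the 3′ end is kept. Some models given the ISM category here have 1 exon and so no junction. NIC models join annotated splice sites in an unannotated way, NNC models use at least 1 unannotated splice site, and genomic models overlap the gene without matching its splicing. The 648 models of the 10 genes comprised 30 known, 220 ISM, 178 NIC, 183 NNC and 37 genomic models. Of the reads of the 10 genes, known models held 52.5% in replicate 1 and 36.4% in replicate 2, and ISM models 34.4% and 49.2%. NIC models held 7.43% and 5.82%, NNC models 2.29% and 2.00%, and genomic models 3.31% and 6.54%.

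The known share was lower in replicate 2 for 7 of the 9 members with at least 20 reads in each library and higher for 0 (two-sided Fisher's exact tests, adjusted over 6340 genes). Of all genes tested, 27.1% differed, 26.9% lower and 0.268% higher, so the direction was that of the libraries as a whole. The median difference was -14.5 percentage points over the members and -8.62 over all genes tested. The share of genes called depends on read number. With at least 50 reads in each library, 45.6% of all genes tested differed, with a median difference of -10.1, and 8 of 9 members (7 lower, 1 higher). The members were not compared with genes of like read number. HLA-DQB1 went from 69.1% to 43.8% known reads (adjusted p = 1.06e-18, Fisher's exact test), the largest drop. HLA-DRA went from 75.5% to 51.9% (adjusted p = 3.43e-97, Fisher's exact test) and HLA-DQA1 from 69.9% to 49.0% (adjusted p = 1.28e-24, Fisher's exact test). HLA-DRB1 went from 47.8% to 33.3%, HLA-DMA from 67.0% to 52.5%, HLA-DMB from 49.5% to 35.9% and HLA-DPB1 from 43.7% to 34.0%, with adjusted p from 9.20e-26 to 0.0163 in the same exact tests. CIITA, with 10.9% and 3.41%, did not pass (adjusted p = 0.199, Fisher's exact test), and neither did HLA-DPA1, with 0.163% and 0.693% (adjusted p = 0.0702, Fisher's exact test).

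The share of ISM reads was higher in replicate 2 for each of the DR, DQ and DM chains and for HLA-DPB1. The ISM share of HLA-DRA was 17.7% and 36.9%, that of HLA-DRB1 27.9% and 46.9%, that of HLA-DQB1 20.3% and 37.7%, that of HLA-DMA 17.6% and 36.4% and that of HLA-DMB 10.4% and 25.5%. In HLA-DQA1 the ISM share was 14.0% and 24.6%, and the genomic share was 10.2% and 22.1%. HLA-DQA1 therefore had the highest genomic share among the chain genes in replicate 2. HLA-DPB1 was already close to evenly split in replicate 1, with an ISM share of 47.1%, and had 57.3% in replicate 2.

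**Figure D4:**
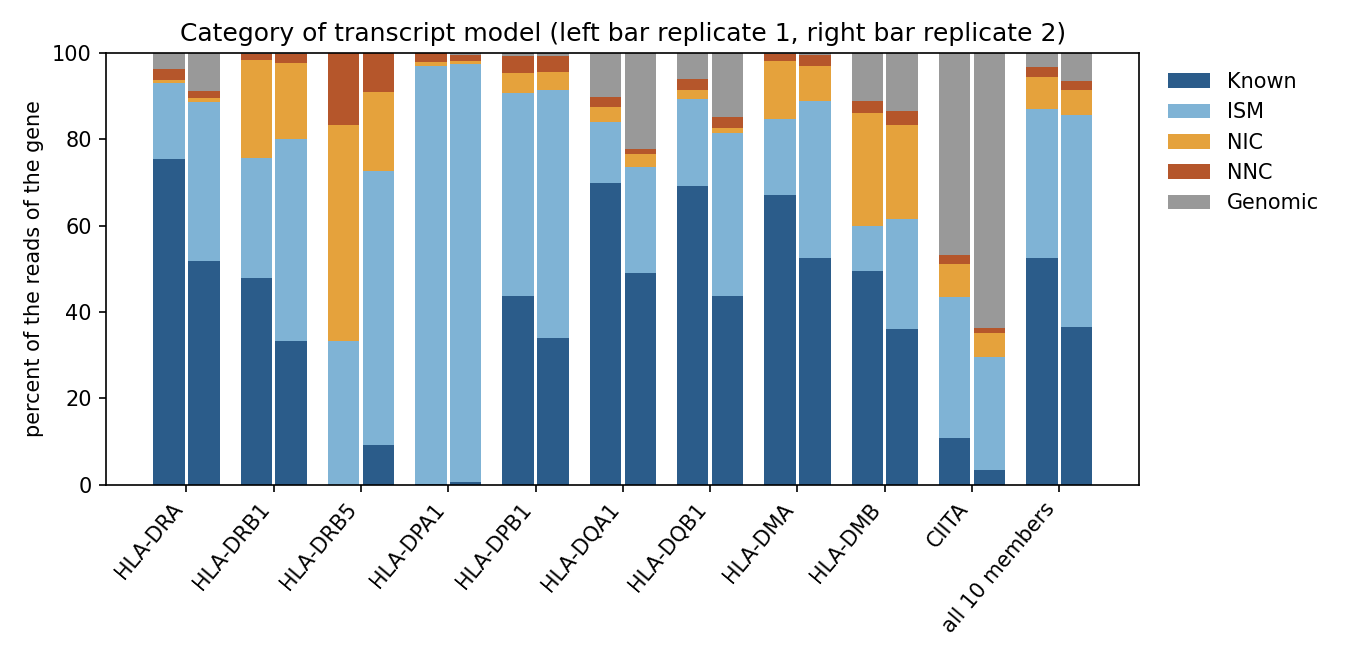
Percent of the reads of each gene, and of the 10 genes together, in known, ISM, NIC, NNC and genomic models, with replicate 1 on the left and replicate 2 on the right of each pair. The known part shrinks from 52.5% to 36.4% over the 10 genes, HLA-DPA1 is almost wholly ISM in both libraries, and HLA-DRB5 rests on 6 and 11 reads.

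For most chain genes 1 annotated transcript held nearly all known reads. HLA-DRB1 has only 1 annotated transcript, so its share is fixed by the annotation, and HLA-DRA has 2. HLA-DRA-202 (5 exons, 1280 bases) had 2823 and 1871 reads, HLA-DRB1-201 (6 exons, 1229 bases) 1264 and 933, HLA-DPB1-211 (6 exons, 1560 bases) 549 and 451, HLA-DQA1-201 (5 exons, 1591 bases) 853 and 544, and HLA-DQB1-205 (5 exons, 1642 bases) 422 and 312. HLA-DMA-201 (5 exons, 1123 bases) had 275 and 180 reads and HLA-DMB-258 (6 exons, 1397 bases) 148 and 53. The share of the leading transcript among known reads could be tested for 6 members and differed for 1 of them (Fisher's exact tests adjusted over 1878 genes, of which 12.5% differed, 11.0% with a lower and 1.44% with a higher share in replicate 2). That member was HLA-DMB, where HLA-DMB-258 took 94.3% of 157 known reads in replicate 1 and 76.8% of 69 in replicate 2 (adjusted p = 0.00421, Fisher's exact test). Retained-intron transcripts of HLA-DMB had 8 and 13 reads. For HLA-DRA, HLA-DPB1, HLA-DQA1, HLA-DQB1 and HLA-DMA the leading transcript held between 90.5% and 99.8% of known reads in each library, with adjusted p from 0.0968 to 0.994 in the same exact tests.

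HLA-DPA1 had the fewest known reads of the chain genes other than HLA-DRB5: known models had 3 and 13, of which 2 and 11 were in its retained-intron transcript. ISM models held 96.9% of its reads in both libraries, 1785 and 1817 reads. One suffix model with 5 exons and 2133 bases, ENCODEHT000590557, had 1496 and 1109 reads, which is 81.2% and 59.1% of the gene. Of the 7 annotated HLA-DPA1 transcripts, only 1 (33064569 to 33080710, 6 exons, 1704 bases) has 5 or more exons, so the suffix model has the splicing of that transcript without its first exon (33080680 to 33080710). At 2133 bases the model is nevertheless longer than the whole of that transcript, so at least 1 of its ends lies outside the matching exons. Exon 2 of that transcript spans 33073471 to 33073669, and the downstream RefSeq start at 33073649, whose X core is printed above, lies in it. The table gives no coordinates for unannotated models, so where these reads began was not analysed here.

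Suffix models made up 93.8% of the 4229 ISM reads of the 10 genes in replicate 1 and 89.3% of the 6028 in replicate 2, against 68.3% and 68.0% over all ISM reads. Among the 8 chain genes other than HLA-DRB5, the mean number of exons of suffix reads ran from 2.97 in HLA-DQA1 to 4.74 in HLA-DPA1 in replicate 1, and from 3.09 to 4.43 in replicate 2. Suffix reads of HLA-DRA had a mean of 3.17 and 3.13 exons. Of these, 46.5% and 46.7% had 3 exons, 35.2% and 33.4% had 4, and 18.4% and 19.9% had 2. The leading HLA-DRA suffix model, ENCODEHT000581971 with 3 exons, had 290 and 588 reads. Suffix reads of HLA-DRB1 had a mean of 4.20 and 4.13 exons, those of HLA-DPB1 4.61 and 4.43, those of HLA-DQB1 3.57 and 3.61 and those of HLA-DMA 3.50 and 3.51. The distribution of HLA-DRA suffix reads over exons was therefore nearly the same in both libraries, although their number was 637 in replicate 1 and 1271 in replicate 2. In the DP chains the distribution differed more: 85.3% of HLA-DPA1 suffix reads had 5 exons in replicate 1 and 65.4% in replicate 2, while those with 3 exons were 6.27% and 15.9%. For HLA-DPB1, 71.7% and 57.6% had 5 exons, and 19.5% and 30.6% had 4. In HLA-DQA1 the suffix reads with 2 exons were 28.4% and 18.9%. None of these differences was tested.

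Counted over known, ISM, NIC and NNC models, the share of reads in models with the exon number of the leading transcript (for HLA-DPA1, of its leading suffix model) was lower in replicate 2 for each of the 8 chain genes other than HLA-DRB5. In HLA-DRA models with 5 exons held 81.3% in replicate 1 and 59.3% in replicate 2. In HLA-DPA1 the same number of exons had 83.4% and 60.5%, a difference of the same order although almost no HLA-DPA1 read was in a known model. In HLA-DQA1 it had 83.2% and 66.5%, in HLA-DQB1 77.4% and 54.7% and in HLA-DMA 72.5% and 54.4%. Of the genes with 6 exons, HLA-DRB1 had 50.6% and 35.6%, HLA-DPB1 48.6% and 36.4% and HLA-DMB 54.3% and 34.3%. In HLA-DRB1 and HLA-DPB1 a further 30.1% and 36.7% of the reads of replicate 1 were in models with 5 exons, 1 fewer than the annotated transcript.

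**Figure D5:**
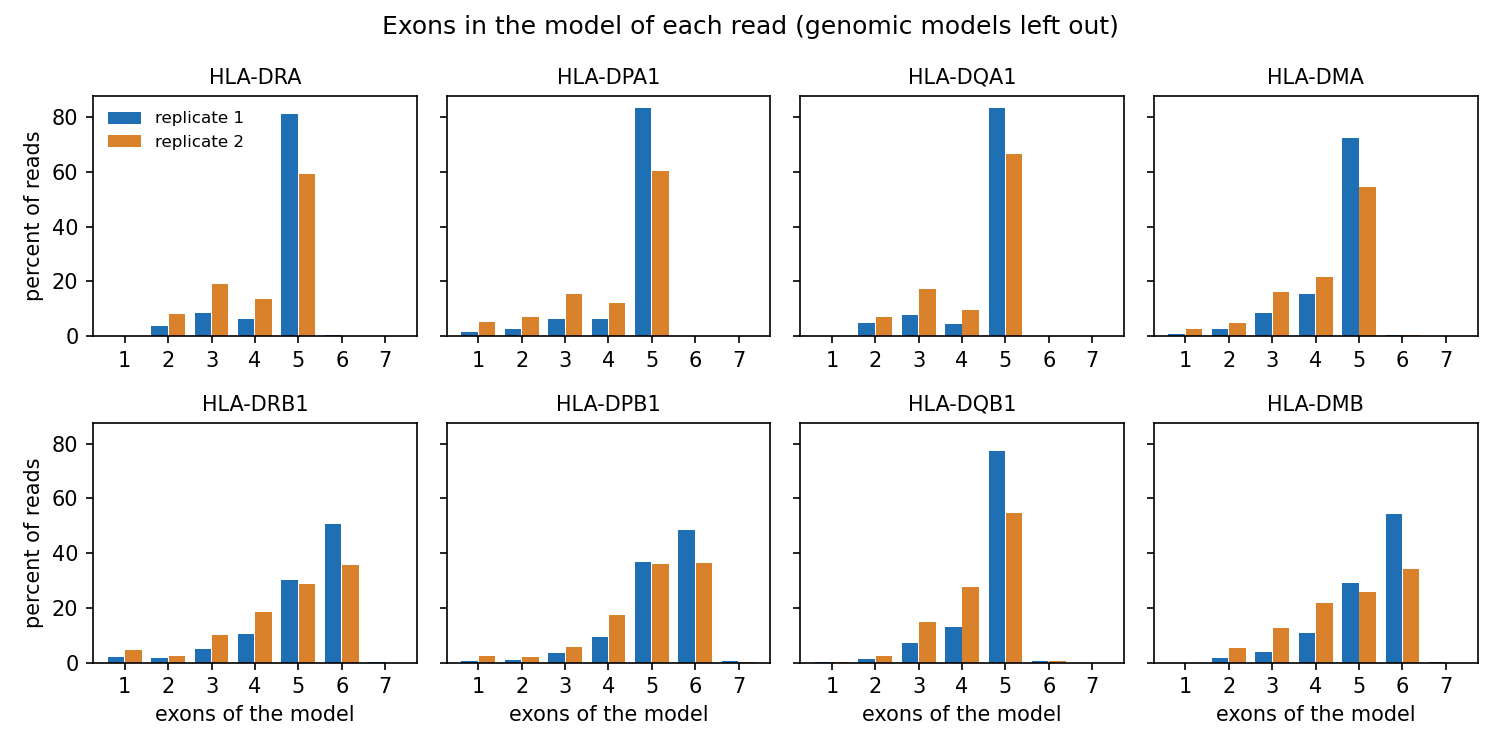
Percent of the reads of 8 chain genes, genomic models left out, by the number of exons of their model in replicate 1 and replicate 2. The bar at 5 exons for HLA-DRA, HLA-DPA1, HLA-DQA1, HLA-DQB1 and HLA-DMA, and at 6 exons for HLA-DRB1, HLA-DPB1 and HLA-DMB, is lower in replicate 2, and bars at 3 and 4 exons are higher.

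NIC reads of the 10 genes were concentrated in HLA-DRB1, a gene with 1 annotated transcript. Its NIC models had 600 and 494 reads, 65.8% and 69.3% of all NIC reads of the 10 genes and 22.7% and 17.6% of its own reads. One of them, ENCODEHT000582653 with 5 exons and 1929 bases, had 468 and 382 reads, or 17.7% and 13.6% of the gene. It has 1 exon fewer than HLA-DRB1-201 and is longer than its 1229 bases, and it was the most abundant NIC model of the 10 genes in both libraries. HLA-DMB had the highest NIC share among the genes with at least 20 reads, 26.2% and 21.9%. Its NIC model with the most reads, ENCODEHT000590033 with 5 exons, had 36 and 10, and the one with the highest minimum over the libraries, ENCODEHT000590031, had 19 and 11; the first of these was named after its values were seen. HLA-DMA had 13.6% and 8.18%, and HLA-DRA 0.665% and 0.719%. NNC models, which also have unannotated splicing, held 39 and 55 reads of HLA-DRB1 and 92 and 60 reads of HLA-DRA. The leading NNC model of the genes reached at most 27 and 22 reads, in HLA-DRA.

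Genomic models mattered in HLA-DRA, HLA-DQA1, HLA-DQB1, HLA-DMB and CIITA. A model of 2256 bases in HLA-DQA1 had 86 and 208 reads, or 6.68% and 17.3% of the gene. A model of 1575 bases in HLA-DRA had 141 and 321 reads, or 3.75% and 8.87%, and 1 in HLA-DQB1 had 36 and 101 reads, or 5.88% and 14.1%. The leading genomic model of HLA-DMB had 30 and 26 reads, or 9.46% and 13.5%, and that of CIITA 28 and 38 reads, or 30.4% and 43.2%. Each of these 5 models took a larger share of its gene in replicate 2, and genomic models as a whole took 11.0% of the reads of replicate 1 against 15.3% in replicate 2.

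Of the 648 models, 231 had a read in both libraries (35.6%, 95% Wilson interval 32.1 to 39.4%), against 29.6% of all models of the table, and 349 rested on 1 read (53.9% against 61.0%). Known models recurred in 23 of 30 cases (76.7% against 57.8% of all known models), ISM models in 43.6% (34.3%), NIC models in 31.5% (15.5%) and NNC models in 22.95% (10.9%), while genomic models recurred in 37.8% (46.1%). These shares were not matched for abundance, and several changed with the reads asked for in each library. With at least 2 reads, known models stood at 63.0% against 62.9% and genomic models at 76.5% against 63.7%. With at least 5 reads, known models stood at 63.2% against 66.8% and NNC models at 46.7% against 52.5%. ISM and NIC models stayed above the share of all models at both minimums. The recurring models held between 90.1% and 99.4% of the reads of each of the 8 chain genes other than HLA-DRB5, but 76.1% and 79.5% of those of CIITA and 33.3% and 45.5% of those of HLA-DRB5.

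CIITA reads rarely followed a full annotated transcript. Known models had 10 and 3 reads: CIITA-201 (20 exons, 16059 bases, 10877198 to 10936388) had 5 and 1, CIITA-214, which starts at the same base, 2 and 0, and the retained-intron transcript CIITA-211 3 and 2. Genomic models held 46.7% and 63.6% of CIITA reads, most of them in 1 model of 1880 bases with 28 and 38 reads. ISM models held 32.6% and 26.1%. The leading ISM model, with 10 exons, had 9 and 8 reads, and suffix reads kept a mean of 9.43 and 7.79 exons. CIITA is known for alternative first exons that differ by cell type, with promoter III used in B cells; reads that did not reach the 5′ end do not tell these apart.

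A list of 23 other genes of the pathway was examined beside the members; 22 had a read, CTSL was not analysed here, and 19 could be tested. Of these, 1 was higher and 1 lower in replicate 2 in exact binomial tests adjusted over all genes, where 2.72% of all tested genes were higher and 2.33% lower; the median log2 ratio of the list was 0.05. CD74, the invariant chain, had 10565 and 12221 reads, or 7766 and 8088 CPM, with a log2 ratio of 0.06 (adjusted p = 0.0462, exact binomial test). CD74 thus had 1.53 reads per read of the classical alpha chains in replicate 1 and 1.83 in replicate 2. IFI30, the lysosomal thiol reductase that unfolds antigens, had 394.7 and 260.1 CPM, with a log2 ratio of -0.60 (adjusted p = 3.76e-08, exact binomial test). Its level lay near that of HLA-DMA, and like both DM chains it was lower in replicate 2.

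Among the other loading and editing genes, HLA-DOA, the alpha chain of DO, had 91 and 122 reads, and HLA-DOB, the beta chain, 59 and 53. DM therefore had 5.11 reads per DO read in replicate 1 and 3.26 in replicate 2. The difference was not tested. CTSS, the protease that trims the invariant chain, had 36.8 and 41.7 CPM, and LGMN, an endosomal endopeptidase, 20 and 9 reads (log2 ratio -1.26, adjusted p = 0.213, exact binomial test). Of the factors that recruit CIITA, the RFX subunits were at 99.2 and 78.8 CPM for RFXANK, 63.2 and 64.2 CPM for RFX5 and 3.68 and 5.96 CPM for RFXAP. RFXAP, with 5 and 9 reads, was the lowest of the RFX subunits in both libraries. The NF-Y subunits lay between 13.9 and 45.0 CPM and CREB1 at 16.9 and 19.2 CPM. The costimulatory genes CD40 (171 and 177 CPM), CD86 (39.7 and 54.3 CPM) and CD80 (47.0 and 43.7 CPM) did not pass the test. MARCH8, a ubiquitin ligase that removes class II molecules from the cell surface, had 17 and 22 reads, and its relative MARCH1 1 and 0.

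Other class II rows were low beside the classical chains. HLA-DQB2, a beta chain gene similar to HLA-DQB1, had 81 and 60 reads, while HLA-DQA2 had 2 and 1. The pseudogenes HLA-DRB6 and HLA-DPB2 had 6 and 8 and 5 and 3 reads. As for HLA-DRB5, reads of these close relatives could have been split between genes by the alignment, and their levels are uncertain for that reason.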

How the data were processed

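Raw counts of reads, deposited by the authors in 1 table, were given per transcript model for both libraries, with the exon number and length of each model as other properties. Its name shows TALON; minimap2 and hg38 are named in the submitters' processing notes, and versions and filters are not given in the sources used here. Per the labels' protocols, depleted RNA was used and reverse transcription served against RNA secondary structure. All 30 known models of the members matched GENCODE 29 in identifier, exons and length. Counts were summed per gene and, where stated, scaled to CPM. Gene counts were compared by exact binomial tests, known shares and transcript usage by Fisher's exact tests (at least 20 reads in each library), with Benjamini-Hochberg adjustment over all genes tested and a threshold of 0.05, in Python 3.11.15 with scipy 1.17.1. Log2 ratios add 0.5 reads. The tests were tested on simulated data. Size factors of edgeR 4.0.16 and DESeq2 1.42.0 served only as alternatives. Models named are, for each gene, the known model with most reads and the model of each other category with the highest minimum count, if at least 5. Members and lists were chosen with earlier results of these data known. Leaving out reads by model category, other minimums and single libraries were tried as alternatives. Wilson and exact intervals, and the limit of 3 reads for a count of 0, cover counting error only. Promoters are from RefSeq (GRCh38.p14).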

Additional observations from a re-analysis of the deposited data

How the results depend on the processing

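No paired analysis was possible because both libraries belong to the same group. The read share of the 10 genes was 0.746% in known models, 0.937% without genomic models and 1.08% in models with 2 or more exons, against 0.856%; single libraries gave 0.810% to 0.902%. With known models only, the alpha to beta ratio was 2.13 for DR, 0.0168 for DP, which is the opposite direction, and 2.40 for DM; the near absence of known HLA-DPA1 reads gives the DP value. Single libraries gave 1.28 to 1.42 for DR, 1.38 to 1.46 for DP, 1.68 to 2.10 for DQ and 1.42 to 1.97 for DM. Of the models of the 10 genes with at least 2 reads in either library, 59.7% reached that minimum in both, against 49.95% of all models. With a minimum of 5 reads these shares were 67.2% and 58.7%. When ISM, NIC and NNC models were counted too, the leading model's share differed for 8 of 9 members, and for 29.7% of all 4741 genes tested, in place of 1 of 6 members and 12.5%. The same 4 genes differed in level under DESeq2 size factors, other read minimums and without genomic models. Of all genes tested, 5.01% differed under DESeq2 size factors and 8.26% without genomic models. With minimums of 1 and 20 reads, 2.78% and 6.34% differed. TMM scaling added HLA-DPA1 (adjusted p = 0.0351, exact binomial test), lower in replicate 2, when 5.21% of all genes differed. Known models only added HLA-DRB1 and HLA-DQB1, both lower in replicate 2. In that setting 18.8% of all genes differed and their median log2 ratio was -0.26. Log2 ratios changed sign with known models only for HLA-DQB1 (-0.30) and HLA-DPA1 (2.08), and without genomic models for HLA-DRB1 (0.0032) and HLA-DPB1 (0.027); the cause was not tested. The known share of HLA-DPA1 passed, higher in replicate 2, with models of 2 or more exons (adjusted p = 0.0491, Fisher's exact test) and with at least 50 reads (adjusted p = 0.0465, Fisher's exact test). It rests on 3 and 13 known reads, and 23.9% and 45.6% of all genes tested differed in these 2 settings. Tests between libraries could not be run without a replicate. Depth limits HLA-DRB5 and the known models of CIITA and HLA-DPA1, which rest on few reads.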
